A study of Arabidopsis thaliana with 8 samples.

Results

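The miRNAs described here are miR165a, miR166a, miR170, miR171a and miR171b, the regulators of meristem and leaf-polarity genes on a customized array of *A. thaliana* miRNAs. They were chosen by name and by their measured values: every entry of the miR165, miR166, miR170 and miR171 families with a deposited value above 0.01, the lowest value on the arrays, on at least 1 of the 8 arrays. The array results hold 5 such entries among 161 miRNAs, all 5 were above 0.01 on all 8 arrays, and no entry of these families lay at 0.01. Their lowest value was 0.699, for miR170.

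Whole 7-day-old seedlings of the wild-type ecotype Columbia, grown in liquid medium with sucrose under continuous light, were compared in 4 groups of 2 arrays. The EBR180 and EBR30 seedlings were kept for 180 or 30 min in medium with 24-epibrassinolide at 10 nM (EBR, a brassinosteroid hormone). The mock180 and mock30 seedlings had a mock solution of the solvent DMSO for the same times. The submitters describe 2 independent experiments for each time and number the arrays of each group, without saying whether a number stands for 1 experiment in all groups.

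miR165 and miR166 have nearly identical mature sequences and guide the cleavage of mRNAs of the class III homeodomain-leucine zipper (HD-ZIP III) factors, among them *PHABULOSA*, *PHAVOLUTA* and *REVOLUTA*. These factors specify the upper side of the leaf, maintain the shoot apical meristem and pattern the xylem, and the miRNAs keep them out of the lower side of the leaf and the outer stele of the root. miR170 and miR171 are likewise related in sequence and guide the cleavage of mRNAs of GRAS-domain factors known as *HAIRY MERISTEM* or *LOST MERISTEMS*, which maintain meristem cells and affect shoot branching and chlorophyll synthesis. Brassinosteroids are steroid hormones of plants that promote cell elongation and affect root growth and the development of the vasculature.

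In the RefSeq annotation of assembly TAIR10.1 all 5 entries matched a gene by name, namely MIR165a (AT1G01183), MIR166a (AT2G46685), MIR170 (AT5G66045), MIR171a (AT3G51375) and MIR171b (AT1G11735). The same annotation lists 13 genes of these families, 2 of MIR165, 7 of MIR166, 1 of MIR170 and 3 of MIR171. Several of these genes encode the same mature miRNA, and the array gave 1 value for miR165a and 1 for miR166a. A value of miR165a or miR166a therefore cannot be assigned to a single gene. Whether each value of miR170, miR171a and miR171b stems from a single gene was not tested.

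For these 5 miRNAs, as for every miRNA above 0.01 on all arrays, each deposited value was a linear ratio, scaled so that the miRNA's median across the 8 arrays was 1. A ratio of 1 is therefore the median of that miRNA, and the ratios do not show which of the 5 miRNAs was the most abundant. Of the 161 miRNAs, 43 were of this kind and were tested together with limma on the log2 scale, with Benjamini-Hochberg adjustment over the 43. A miRNA is called here when its adjusted p was below 0.05. The limma model gave all miRNAs a common spread, so that each log2 fold change between 2 groups had a standard error of 0.125. The precision is limited by the 2 arrays of each group. The p-values and intervals treat the miRNAs of an array as independent, although a shift of a whole array is common to them. The median ratio over the 43 miRNAs lay between 1.02 and 1.12 on the 180 min arrays and between 0.818 and 0.988 on the 30 min arrays, with the mock30 arrays lowest at 0.818 and 0.931. For this reason the comparisons were repeated after subtraction of that median from each array (centring), which lowered the log2 fold changes by 0.17 for EBR30 against mock30, by 0.30 for mock180 against mock30 and by 0.13 for EBR180 against EBR30. By the same measure, as deposited minus centred, the shift was -0.01 for EBR180 against mock180. It was -0.18 for the EBR effect at 180 min minus that at 30 min, so that centring raised both. After centring the model no longer gave a common spread, and the standard errors over the 43 miRNAs lay between 0.0374 and 0.223, so that a call gained or lost there can rest on the spread as well as on the size of the change.

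**Figure D1:**
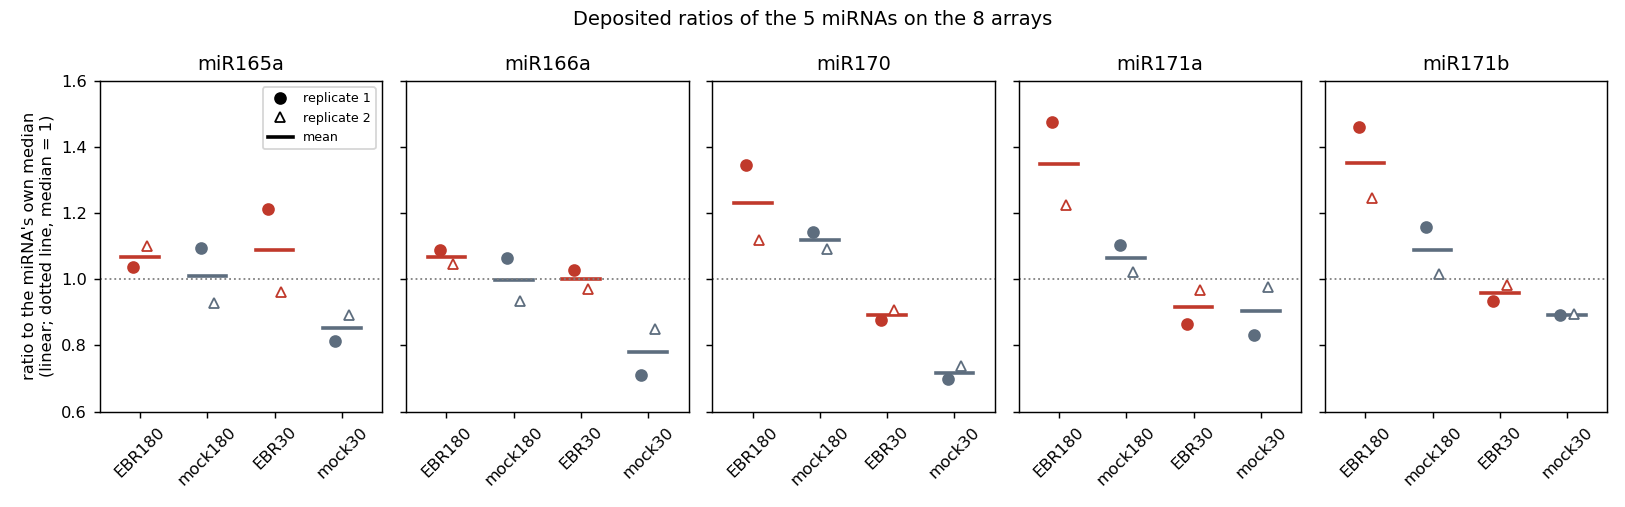
Deposited linear ratio of each of the 5 miRNAs to its own median (vertical axis) on the arrays of the 4 groups (horizontal axis), with replicate 1 as filled circles, replicate 2 as open triangles and the mean as a bar. miR171a and miR171b stood at 1.22 or above on both EBR180 arrays and at 1.16 or below on the other 6 arrays. The mean of each of the 5 miRNAs was lowest in mock30. For miR165a, miR166a, miR170 and miR171b both mock30 arrays lay below the other 6.

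As deposited, the means of the miRNAs of the HD-ZIP III mRNAs were lowest in mock30, as were those of miR170, miR171a and miR171b. The means of miR165a and miR166a in the other 3 groups lay between 0.998 and 1.09. All 5 miRNAs had their lowest value on mock30 replicate 1, the array with the lowest median. After centring miR166a was still lowest in mock30, with a mean log2 value of -0.17, while miR165a was lowest in mock180, at -0.10, with -0.03 in mock30. Before centring both miR165a and miR166a rose in EBR30 against mock30, and neither was called in EBR180 against mock180. In whole seedlings fewer cells with a miRNA and less of the miRNA per cell cannot be told apart.

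The ratio of miR165a was 1.04 and 1.10 in EBR180 (replicates 1 and 2 in this order, also below) and 1.10 and 0.928 in mock180. At 30 min it was 1.21 and 0.963 in EBR30 and 0.814 and 0.892 in mock30. Replicate 1 of EBR30 was the highest of all 8 arrays, and both mock30 arrays lay below the other 6. By group mean the order was EBR30, EBR180, mock180 and mock30, and the arrays of the first 3 groups overlapped. miR165a rose by a log2 fold change of 0.34 in EBR30 against mock30, or 1.27-fold (95% interval 0.10 to 0.59, adjusted p = 0.0257 from limma). After centring the log2 fold change was 0.18 and was not called (adjusted p = 0.355). The duplicates of EBR30 differed by 0.33 on the log2 scale, the widest difference between duplicates among the 5 miRNAs, and without EBR30 replicate 1 the log2 fold change was 0.18 and was not called. It was 0.28 without mock30 replicate 1, which was not called either. At 180 min the difference between EBR180 and mock180 was 0.08, with an interval from -0.16 to 0.33 (adjusted p = 0.735 from limma). Between the times the log2 fold change of miR165a was 0.24 in mock180 against mock30 (adjusted p = 0.0717) and -0.02 in EBR180 against EBR30 (adjusted p = 0.963). The first was called without mock30 replicate 2 (0.31) or mock180 replicate 2 (0.36), and the second was 0.15 without EBR30 replicate 1.

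The ratio of miR166a was 1.09 and 1.05 in EBR180 and 1.06 and 0.933 in mock180. At 30 min it was 1.03 and 0.972 in EBR30 and 0.712 and 0.850 in mock30. The 2 mock30 arrays were again below all others, the arrays of mock180 overlapped those of EBR180 and EBR30, and both EBR180 arrays lay above both EBR30 arrays. The mean was 1.07 ± 0.0297 (SD, n = 2) in EBR180, 0.998 ± 0.0920 in mock180, 1.00 ± 0.0403 in EBR30 and 0.781 ± 0.0974 in mock30. miR166a rose by 0.36 on the log2 scale in EBR30 against mock30, or 1.29-fold (interval 0.12 to 0.61, adjusted p = 0.0199 from limma), and this was 0.20 after centring (adjusted p = 0.131). It was not called without EBR30 replicate 1 (0.32), EBR30 replicate 2 (0.40) or mock30 replicate 1 (0.23). In EBR180 against mock180 the log2 fold change was 0.10 (interval -0.14 to 0.35, adjusted p = 0.735). Between the times miR166a rose by 0.36 in mock180 against mock30 (adjusted p = 0.0101), a difference of 0.05 after centring (adjusted p = 0.638). This call too was lost without mock30 replicate 1 (0.23) or mock180 replicate 1 (0.26). In EBR180 against EBR30 it differed by 0.10 (adjusted p = 0.729). The EBR effect at 180 min minus that at 30 min was -0.26 for miR165a (adjusted p = 0.222) and -0.26 for miR166a (adjusted p = 0.222), and neither was called.

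miR170, which targets the *HAIRY MERISTEM* mRNAs, had the widest range of the 5 miRNAs, 1.92-fold between its lowest and its highest array and the fifth widest of the 43 tested miRNAs. Its ratio was 1.35 and 1.12 in EBR180 and 1.14 and 1.09 in mock180, so that these groups overlapped. At 30 min it was 0.877 and 0.909 in EBR30 and 0.699 and 0.737 in mock30. All 4 arrays at 180 min lay above all 4 at 30 min, and both EBR30 arrays lay above both mock30 arrays. The order of the group means was EBR180, mock180, EBR30 and mock30, and only the first pair of neighbours overlapped.

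The change of miR170 with time was its largest. It rose by 0.64 on the log2 scale, or 1.56-fold, in mock180 against mock30 (adjusted p = 5.66e-06 from limma) and by 0.46, or 1.37-fold, in EBR180 against EBR30 (adjusted p = 0.00168). After centring both were still called, at 0.33 (adjusted p = 0.00758) and 0.33 (adjusted p = 0.0159). Of the 5 miRNAs miR170 alone was called in mock180 against mock30 after centring. With EBR it rose by 0.31 in EBR30 against mock30 (interval 0.07 to 0.56, adjusted p = 0.0334), and by 0.15 after centring, which was not called (adjusted p = 0.131). Without EBR30 replicate 1, EBR30 replicate 2 or mock30 replicate 1 this change was 0.34, 0.29 or 0.28 and was not called, nor was that in EBR180 against EBR30 without EBR180 replicate 1 (0.33). In EBR180 against mock180 the log2 fold change was 0.13, with an interval from -0.11 to 0.38 (adjusted p = 0.674). The effect at 180 min minus that at 30 min was -0.18 (adjusted p = 0.357).

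The 2 entries of miR171, which target the same family of mRNAs, were highest on the EBR180 arrays and close together on every array. The ratio of miR171a was 1.48 and 1.22 in EBR180 and 1.10 and 1.02 in mock180. It was 0.865 and 0.968 in EBR30 and 0.831 and 0.977 in mock30. The EBR180 arrays stood above all others, the mock180 arrays came next, and the arrays of EBR30 and mock30 overlapped. The ratio of miR171b was 1.46 and 1.25 in EBR180 and 1.16 and 1.02 in mock180, and 0.935 and 0.983 in EBR30 and 0.892 and 0.894 in mock30. For miR171b none of the neighbouring groups overlapped, but EBR30 and mock30 differed by only 0.10 on the log2 scale (interval -0.14 to 0.35, adjusted p = 0.530).

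miR171a rose by 0.34 on the log2 scale in EBR180 against mock180, or 1.27-fold (interval 0.09 to 0.59, adjusted p = 0.0441 from limma). The change of miR171b was of nearly the same size, 0.31 or 1.24-fold (interval 0.07 to 0.56), and just missed the threshold (adjusted p = 0.0619). After centring the log2 fold changes were 0.35 for miR171a (standard error 0.0739, adjusted p = 0.0165) and 0.32 for miR171b (standard error 0.0879, adjusted p = 0.0357). Both were called, with changes of nearly the same size as before and smaller standard errors. Replicate 1 of EBR180, the array with the highest median ratio over the 43 miRNAs (1.12), was the higher one for both miRNAs. Without it the log2 fold changes in EBR180 against mock180 were 0.20 for miR171a and 0.20 for miR171b. Without mock180 replicate 2 the log2 fold change of miR171a was 0.28, and neither miRNA was called in either case. With the spread of each miRNA taken from the 4 arrays of this comparison alone, the adjusted p of miR171a was 0.482, and 0 of the 43 miRNAs were called.

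At 30 min the log2 fold change of miR171a in EBR30 against mock30 was 0.02, with an interval from -0.22 to 0.27 (adjusted p = 0.866 from limma). After centring both miR171 entries lay below 0 at this time, miR171a at -0.14 (adjusted p = 0.170) and miR171b at -0.06 (adjusted p = 0.580). The EBR effect of miR171a at 180 min exceeded that at 30 min by 0.32, with a standard error of 0.176 (adjusted p = 0.175). After centring the difference between the effects was 0.49 (adjusted p = 0.0117) and was called. For miR171b these differences were 0.21 (adjusted p = 0.295) and 0.39 after centring (adjusted p = 0.0512). Centring shifted this difference by the same amount for every miRNA, through the array medians alone. The standard error of miR171a became 0.104 after it. Why the array medians differed was not tested.

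Between the times the miR171 entries had larger log2 fold changes in the seedlings with EBR than in mock. The gap between the 2 equals the difference of the EBR effects above. That difference was called for neither entry as deposited, and for miR171a after centring. miR171a rose by 0.56, or 1.47-fold, in EBR180 against EBR30 (adjusted p = 0.000129 from limma) and miR171b by 0.49, or 1.41-fold (adjusted p = 0.000804). These were the fifth and the sixth largest changes of the 43 tested miRNAs in this comparison, and after centring both were called at 0.43 and 0.36. Without EBR180 replicate 1 they were 0.42 and 0.38, both just above the threshold (adjusted p = 0.0619 each). In mock180 against mock30 the log2 fold change was 0.24 for miR171a (adjusted p = 0.0754) and 0.28 for miR171b (adjusted p = 0.0412). The call of miR171b was lost without either EBR30 array, either mock30 array or mock180 replicate 1, with a log2 fold change of 0.19 in the last case, and miR171a was called at 0.35 without mock30 replicate 2. After centring both lay just below 0, at -0.07 for miR171a and -0.02 for miR171b.

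**Figure D2:**
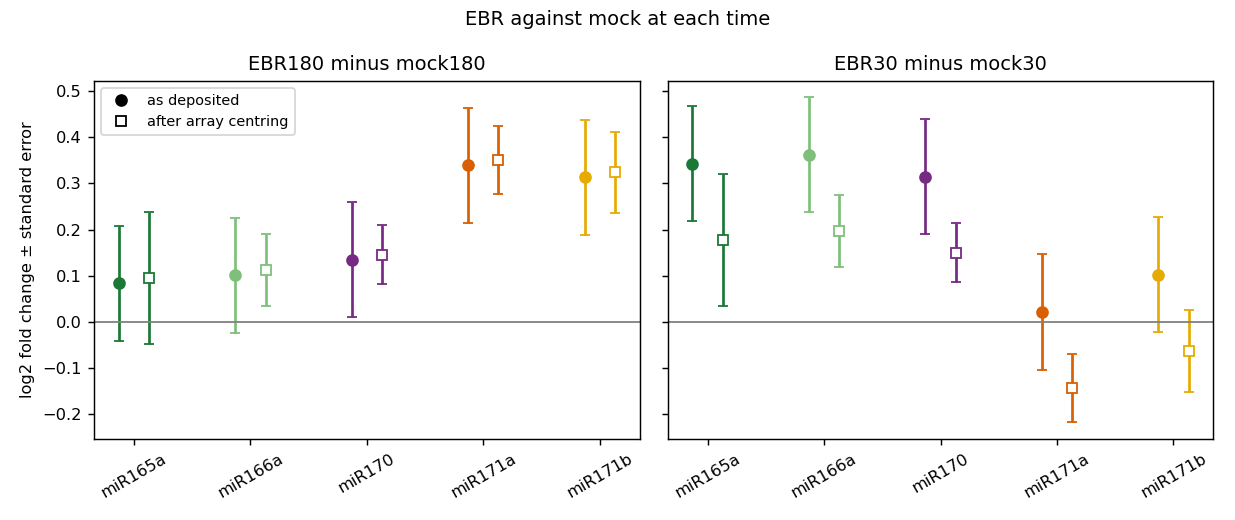
Log2 fold change (vertical axis) of the 5 miRNAs in EBR180 minus mock180 (left) and EBR30 minus mock30 (right), with filled circles for the ratios as deposited, open squares after array centring, and bars for the standard error from limma. The miR171 entries stood highest at 180 min, at 0.34 and 0.31, and lowest at 30 min, at 0.02 and 0.10.

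Counted over the 5 miRNAs, 1 was called higher in EBR180 against mock180, where 9.3% of the 43 tested miRNAs were called higher. The EBR180 arrays both lay above the mock180 arrays for 2 of the 5 (23.3% of the 43), and after centring 2 of the 5 were called higher (16.3% of the 43). The median log2 fold change was 0.13 over the 5 miRNAs and -0.02 over the 43. Between 0 and 2 of the 5 were called when single arrays were left out, 0 without EBR180 replicate 1, mock180 replicate 2 or either EBR30 array, and 2 without EBR180 replicate 2, mock180 replicate 1 or either mock30 array.

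In EBR30 against mock30, 3 of the 5 were called higher, against 30.2% of the 43, and for 4 of the 5 both EBR30 arrays lay above both mock30 arrays, against 65.1% of the 43. The median was 0.31 over the 5 and 0.18 over the 43. Without EBR30 replicate 1 or mock30 replicate 1 the number called in limma was 0, with 2 and 1 below 0.05 unadjusted, and without EBR30 replicate 2 it was 1. After centring none of the 5 was called in limma, with 1 of the 5 below 0.05 unadjusted, while 9.3% of the 43 were called higher. Over all 43 miRNAs 13 were called higher and 3 lower before centring, and 4 higher and 4 lower after it.

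In EBR180 against EBR30, 3 of the 5 were called higher, against 16.3% of the 43, and the median was 0.46 over the 5 and 0.10 over the 43. For 4 of the 5 both EBR180 arrays lay above both EBR30 arrays, against 51.2% of the 43. After centring 3 of the 5 were called, against 16.3% of the 43. The 3 called in both settings were miR170, miR171a and miR171b, and without EBR180 replicate 1 the number called in limma was 0, with 3 below 0.05 unadjusted. In mock180 against mock30, 3 of the 5 were called higher, against 58.1% of the 43, all 5 had both mock180 arrays above both mock30 arrays, against 76.7% of the 43, and the medians were 0.28 and 0.29. After centring 1 of the 5 was called higher, against 16.3% of the 43, and 1 was called without mock30 replicate 1 or mock180 replicate 1. Between 180 and 30 min 25 miRNAs were called higher and 3 lower in mock before centring, and 7 higher and 8 lower after it. None of the 5 was called lower in any of these comparisons, with or without centring.

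A difference of the EBR effect between 180 and 30 min was called for 0 of the 5 in limma, also at an unadjusted p below 0.05, while 25.6% of the 43 were called in either direction. After centring it was called higher at 180 min for 1 of the 5, miR171a, against 18.6% of the 43. In limma's moderated F-test over the 4 groups all 5 were called, where 62.8% of the 43 were called. The adjusted p of this test was 4.19e-09 for miR170, 1.81e-05 for miR171a, 2.53e-05 for miR171b, 0.00301 for miR166a and 0.0344 for miR165a. After centring it was 0.00528, 0.0165 and 0.0405 for miR170, miR171a and miR171b, and miR166a (0.173) and miR165a (0.482) were not called.

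**Figure D3:**
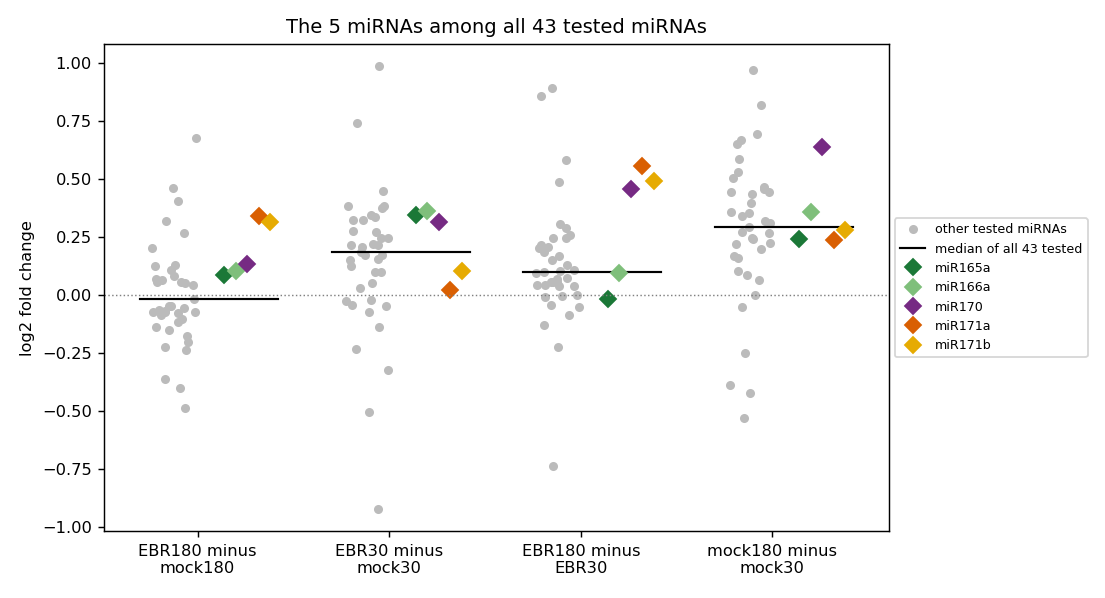
Log2 fold change (vertical axis) in 4 comparisons (horizontal axis) for the 5 miRNAs as coloured diamonds and for the other tested miRNAs as grey points, with the median of all 43 as a black line. In EBR180 minus EBR30 the diamonds of miR170, miR171a and miR171b lie at 0.46, 0.56 and 0.49, above the median of 0.10, and those of miR165a and miR166a at -0.02 and 0.10.

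The miRNAs of the HD-ZIP III mRNAs and those of the *HAIRY MERISTEM* mRNAs were then set against each other within each array, a measure in which any factor common to an array cancels and which was chosen with the values above known. The mean log2 ratio of miR170, miR171a and miR171b minus that of miR165a and miR166a was 0.42 and 0.15 on the EBR180 arrays and 0.07 and 0.17 on the mock180 arrays. It was -0.33 and -0.02 on the EBR30 arrays and 0.08 and -0.01 on the mock30 arrays. Both EBR180 arrays lay above both EBR30 arrays, EBR180 overlapped mock180, and both EBR30 arrays lay below both mock30 arrays, replicate 2 by only a small amount. The mean was 0.29 ± 0.191 (SD, n = 2) in EBR180, 0.12 ± 0.0654 in mock180, -0.17 ± 0.215 in EBR30 and 0.03 ± 0.0636 in mock30. No test is given for this measure. It places miR170 with the miR171 entries, which the changes of miR170 bear out only in part. In EBR180 against EBR30 miR170 rose by 0.46, beside 0.56 for miR171a and 0.49 for miR171b. In EBR30 against mock30 its 0.31 was nearer to miR165a (0.34) and miR166a (0.36) than to miR171a (0.02) and miR171b (0.10). The -0.33 on EBR30 replicate 1 includes the highest ratio of miR165a, 1.21, which was 0.963 on replicate 2.

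**Figure D4:**
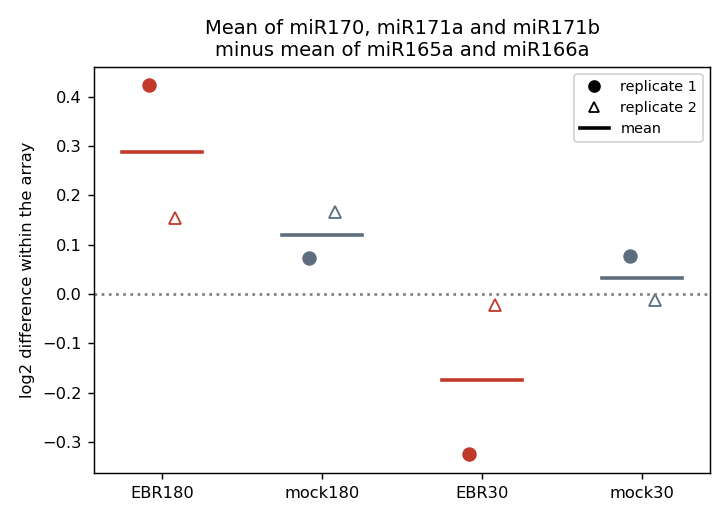
Mean log2 ratio of miR170, miR171a and miR171b minus that of miR165a and miR166a within each array (vertical axis) in the 4 groups (horizontal axis), with circles for replicate 1, triangles for replicate 2 and bars for the mean. The values lay at 0.42 and 0.15 in EBR180 and at -0.33 and -0.02 in EBR30, and the mock arrays of both times between -0.01 and 0.17.

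Related miRNAs also followed each other from array to array, as did some miRNAs of other families. On the log2 scale miR171a and miR171b differed by a median of 0.05 within an array and by 0.13 at most, and miR165a and miR166a by a median of 0.07 and by 0.24 at most. Over the 8 arrays, which share the 4 groups, Pearson's r was 0.96 for miR171a with miR171b (Spearman's rho 0.93) and 0.86 for miR165a with miR166a (rho 0.76). It was 0.86 for miR170 with miR171a (rho 0.90) and 0.91 for miR170 with miR171b (rho 0.98). Across the 2 target families r lay between 0.32 and 0.83 before centring. The highest was that of miR166a with miR170, whose rho of 0.90 exceeded that of miR165a with miR166a. Some miRNAs of other families came as close, with r of 0.93 for miR166a with miR160a and 0.96 for miR171a with miR172e. Counted from the highest r of all 903 pairs, miR171a with miR171b had rank 13 and miR165a with miR166a rank 149. The rank was 147 for miR170 with miR171a and 78 for miR170 with miR171b. The median r over all 903 pairs of the 43 miRNAs was 0.55, since the arrays themselves differed. After centring that median was -0.02, and r was 0.91 for miR171a with miR171b, 0.77 for miR165a with miR166a, 0.63 for miR170 with miR171a and 0.72 for miR170 with miR171b. The ranks of these 4 pairs by centred r were 5, 39, 92 and 58. Across the 2 target families r after centring lay between -0.27 and 0.33. Without the 2 arrays farthest from the median of the first miRNA of a pair, the centred r was 0.50 for miR171a with miR171b, where both EBR180 arrays were left out, and 0.41 for miR165a with miR166a, where EBR30 replicate 1 and mock180 replicate 2 were left out. Across the 2 target families the centred r without 2 arrays lay between -0.28 and 0.32, the latter for miR166a with miR170. These values are a description, and how far probes for such similar sequences cross-hybridise was not tested.

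Among the other tested miRNAs, the 3 with the most similar pattern over the 8 centred arrays were named for each of the 5. For both miR171a and miR171b the first was miR172e, a regulator of *APETALA2*-like mRNAs, with r of 0.90 for miR171a and 0.86 for miR171b. For miR171a miR390a (0.59) and miR159b (0.59) followed, and for miR171b miR159b (0.72) and miR159a (0.59). miR170 was closest to miR400 (0.75), miR169a (0.73) and miR169d (0.72), miR166a to miR156h (0.70), miR160a (0.69) and miR163 (0.64), and miR165a to miR398a (0.67), miR163 (0.59) and miR162a (0.46).

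Other miRNAs of shoot meristem and leaf development, those of the miR164, miR319, miR390, miR394 and miR396 families, had 8 entries on the arrays. Of these 5 were at 0.01 on all arrays, miR394a was at 0.01 on 1 array, and miR164a and miR390a were tested. Neither was called in EBR180 against mock180, EBR30 against mock30, either comparison of times, or the difference of the EBR effects in limma. miR390a, which triggers the *TAS3* small RNAs that restrain auxin response factors on the upper side of the leaf, had a ratio of 1.14 and 1.12 in EBR180 and 0.954 and 1.02 in mock180. Both EBR180 arrays lay above both mock180 arrays, and the log2 fold change was 0.20 (adjusted p = 0.333). miR164a, which targets the organ boundary genes *CUP-SHAPED COTYLEDON*, had a ratio of 1.15 and 1.02 in EBR180 and 1.01 and 0.981 in mock180, a log2 fold change of 0.13 (adjusted p = 0.690). After centring the difference of the EBR effects was called for miR390a at 0.40 (adjusted p = 0.0280), and miR164a was called higher in EBR180 against mock180, at 0.14 (adjusted p = 0.0475). In mock180 against mock30 miR164a was then called lower, at -0.14 (adjusted p = 0.0392), while before centring the log2 fold change was 0.16.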

How the data were processed

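Total RNA of whole seedlings was labelled with Cyanine 3-pCp and hybridised to single-colour Agilent arrays, read with Agilent Feature Extraction 9.1 per the labels. The authors used GeneSpring, set the baseline to the median over the samples, and deposited 1 linear ratio per miRNA and array. Background correction and scaling between arrays are not given in the sources used here, and the depth of signal over background is unknown. The log2 ratios of the 43 miRNAs above 0.01 on all 8 arrays were fitted with limma 3.58.1 in R 4.3.3, with a mean for each group, empirical Bayes moderation and Benjamini-Hochberg adjustment (threshold 0.05). The fit was tested on simulated data with independent noise, a common spread and no shift of whole arrays. That test therefore does not show how the fit behaves with the shifts between these arrays. All members of the 4 families were named, with the 3 tested miRNAs of most similar pattern for each. The members and lists were chosen with earlier results of these data known. The alternatives were array centring, the replicate number as a block, quantile normalization, a trend with robust prior, each miRNA's own spread, the compared groups only, log2 of the ratio plus 1, the 4 miRNAs at 0.01 on only some arrays added, and each array left out. P-values of the main fit rest on the spread between the 2 arrays of a group, pooled over the 43 miRNAs and the 4 groups. They do not reflect the own spread of a single miRNA.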

Additional observations from a re-analysis of the deposited data

How the results depend on the processing

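The number of the 5 miRNAs called is given here with the number over all tested miRNAs. In EBR30 against mock30 it was 3, with 16 of the 43 called. It was 0 after centring (8 of the 43), with own spread in place of the common one (0, and 1 of the 5 below 0.05 unadjusted), after quantile normalization (6) and with the 4 miRNAs at 0.01 on some arrays included (4 of 47). Without single arrays it was 0 to 3 (0 without EBR30 replicate 1 or mock30 replicate 1, with 5 and 6 of the 43, and 1 without EBR30 replicate 2, with 9). In EBR180 against mock180 it was 1, with 7 of the 43 called, and 2 after centring (13), after quantile normalization (11) and with log2 of the ratio plus 1 (9). It was 0 there with the trend and robust prior (4), with own spread (0, and 0 of the 5 unadjusted), with only the groups compared (6) and with the 4 miRNAs included (1 of 47). Without single arrays it was 0 to 2, 0 without EBR180 replicate 1 (2), mock180 replicate 2 (2) or either EBR30 array (6 each), and 2 without EBR180 replicate 2 (5), mock180 replicate 1 (8) or either mock30 array (9 each). The difference of the EBR effects was called for 0, with 11 of the 43, for 1 after centring (15) and for 2 after quantile normalization (14), and for 0 to 0 without single arrays. In mock180 against mock30 it was 3, with 28 of the 43, and 1 after centring (15), 1 after quantile normalization (10), 0 with own spread (0, and 1 of the 5 unadjusted) and 1 to 4 without single arrays (1 without mock30 replicate 1 or mock180 replicate 1, with 19 and 21). In EBR180 against EBR30 it was 3, with 8 of the 43, and 0 with own spread (0, and 0 of the 5 unadjusted), 0 with the 4 miRNAs included (2 of 47) and 0 to 3 without single arrays (0 without EBR180 replicate 1, with 4). Over the 4 groups it was 5, with 27 of the 43, and 3 after centring (21), 3 after quantile normalization (22), 1 with own spread (9), 2 with the 4 miRNAs included (16 of 47) and 3 to 5 without single arrays (3 without mock30 replicate 1, with 21). With own spread, a pair of groups was compared by the methods' t-test on its 4 arrays alone. The study applied that test to other data and a one-way analysis, used here over the 4 groups, to the arrays.

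Of the 25 log2 fold changes, 8 changed sign under some alternative. Only 1 of these was called in the first place, miR171b in mock180 against mock30, at -0.0221 after centring. In EBR30 against mock30 miR171a was at -0.14 after centring, -0.14 after quantile normalization and -0.0949 to 0.14 without single arrays, and miR171b at -0.0630 and -0.0590. In mock180 against mock30 miR165a was at -0.0616 after centring and -0.0365 after quantile normalization, and miR171a at -0.0661 and -0.0410. In EBR180 against EBR30 miR166a was at -0.0318 after centring and -0.0408 after quantile normalization. Without single arrays miR165a ranged from -0.0359 to 0.20 in EBR180 against mock180 and from -0.18 to 0.15 in EBR180 against EBR30. Why these values changed was not tested. With 4 arrays per comparison of 2 groups, own spread leaves few degrees of freedom, and leaving out an array lowers the precision.

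The replicate number as a block gave the same numbers of calls among the 5 miRNAs, 3, 1, 0, 3 and 3 in the comparisons in the order above and 5 over the 4 groups. Deviations of the same-numbered arrays from their group means correlated between 0.11 and 0.36 across the 43 miRNAs. The samples share only a number in the labels, so the pairing was not used.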

Other observations

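miR394a, which acts in the stem cells of the shoot meristem through the F-box gene *LEAF CURLING RESPONSIVENESS*, was not tested because it was at 0.01 on 1 array. Its deposited value was 0.531 and 0.485 in EBR180, 0.568 and 0.434 in mock180, 0.482 and 0.471 in EBR30, and 0.01 and 0.484 in mock30. The 7 values above 0.01 did not separate the groups, and the median of the 8 values was not 1, so that their scale differs from that of the tested miRNAs.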
